A study of Mus musculus with 6 samples.

Results

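The enzymes that make and break down cyclic nucleotides were compared between sorted cells of the mouse ventral mesencephalon. The set comprised every gene whose probe sets carried 1 platform symbol of the adenylyl cyclase (Adcy), guanylyl cyclase (Gucy1 and Gucy2) or phosphodiesterase (Pde) series. It held 39 genes of the 18193 with such a symbol, namely 10 adenylyl cyclases, 6 guanylyl cyclase genes and 23 phosphodiesterase genes, on 90 probe sets. The set was chosen by the measured signals of Gucy2c and Pde1a, which are higher in the Ngn2-GFP positive cells, so the values of both are given as a description and nothing is read from their size or from their passing a threshold.

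The positive group was GFP-positive cells from Ngn2-GFP mice of strain CD1/129, and the reference group was GFP-negative cells from Lmx1a-GFP mice of strain C57BL/6. Both came from the ventral mesencephalon at embryonic day 12.5 and were isolated by flow cytometry, with 3 biological replicates and 1 array each. Ngn2 is a proneural gene, and per the series description its GFP-positive cells include nearly all midbrain dopaminergic progenitors, while the Lmx1a-GFP gate removes cells of the Lmx1a lineage. Reporter line, strain and GFP gate changed together between the groups and cannot be told apart. The labels do not say how many embryos made up a replicate.

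Cyclic AMP is made from ATP by the adenylyl cyclases, of which the membrane forms are driven or restrained by G proteins and, for some, by calcium and calmodulin. Cyclic GMP is made by the nitric oxide receptor built of Gucy1 subunits and by single-pass membrane receptors of the Gucy2 type. Phosphodiesterases hydrolyse one or both messengers, and protein kinases A and G, cyclic nucleotide-gated channels and Rap exchange factors read them out. In the midbrain, dopamine receptors act on adenylyl cyclase, and Gucy2c has been described in dopamine neurons.

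Promoter sequences were taken from RefSeq (GRCm38.p6) for the members with the largest differences in each direction, to show what precedes their start sites. Of the 39 members, 29 had a window, and Gucy2c was not among them. Printed are the outermost window of Pde1a, Pde2a and Adcy1 and any further window of these genes with a match. Pde1a has 4 windows, of which 1 held a match, Pde2a has 5, of which 1 held a match, and Adcy1 has 1. Each sequence is the 250 bases before a start site, 5′ to 3′ on the gene's strand, with capitals marking a match on either strand to a searched motif. The first window of Pde1a lies on the minus strand at chr2:80129413-80129662 and held no match. The second window of Pde1a lies at chr2:80128972-80129221 on the same strand, and the outermost Pde2a window at chr7:101421441-101421690 on the plus strand. The Adcy1 window lies at chr11:7063183-7063432 on the plus strand.
Pde1a, first window: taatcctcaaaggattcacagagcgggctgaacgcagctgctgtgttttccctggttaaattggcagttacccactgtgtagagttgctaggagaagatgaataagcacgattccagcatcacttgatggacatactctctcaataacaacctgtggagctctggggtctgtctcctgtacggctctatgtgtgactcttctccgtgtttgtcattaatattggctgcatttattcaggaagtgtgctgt
Pde1a, second window: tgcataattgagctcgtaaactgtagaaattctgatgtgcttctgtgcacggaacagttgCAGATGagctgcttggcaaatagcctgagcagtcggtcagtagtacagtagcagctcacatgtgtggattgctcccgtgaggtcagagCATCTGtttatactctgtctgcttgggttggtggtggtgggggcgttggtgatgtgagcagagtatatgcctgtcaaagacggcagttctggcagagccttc
Pde2a: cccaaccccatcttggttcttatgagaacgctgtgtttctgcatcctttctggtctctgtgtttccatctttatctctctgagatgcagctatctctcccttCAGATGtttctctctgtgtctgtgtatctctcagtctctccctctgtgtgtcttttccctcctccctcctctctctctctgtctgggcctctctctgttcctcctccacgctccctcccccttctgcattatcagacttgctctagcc
Adcy1: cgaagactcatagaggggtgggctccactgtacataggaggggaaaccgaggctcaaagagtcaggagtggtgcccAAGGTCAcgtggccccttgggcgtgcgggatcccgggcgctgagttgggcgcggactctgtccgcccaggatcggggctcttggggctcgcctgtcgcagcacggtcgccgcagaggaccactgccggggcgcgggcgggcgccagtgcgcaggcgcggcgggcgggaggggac

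The motifs searched on both strands were TAATTA (a homeodomain core), CAGATG (an E-box), TGTTTAC (a forkhead core), AAGGTCA (a nuclear receptor site) and TGACGT (a CREB core). The second Pde1a window held CAGATG with its first base at -190, and its reverse complement at -102, counted from the start site. The outermost Pde2a window held CAGATG at -148, and the Adcy1 window held AAGGTCA at -174. CAGATG occurred in 13 of 55 member windows (23.6%) and in 14.4% of all 32851 windows. TAATTA occurred in 3.64% of the member windows against 4.84% of all, TGTTTAC in 5.45% against 3.17%, AAGGTCA in 5.45% against 4.08%, and TGACGT in 7.27% against 6.47%. Several windows can belong to 1 gene, so the windows are not independent, and a match is a description of letters alone.

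The array signals are MAS5 intensities on a linear scale, where every array has a 2% trimmed mean of 100. The filter level was each array's 40th percentile, which ran from 10.2 to 15.8, and a gene was tested where a probe set of it stood above that level on 3 or more of the 6 arrays. Differences are log2 of the positive signal minus log2 of the negative signal, with standard errors and adjusted p-values from limma over 12044 genes. At a threshold of 0.05 on the adjusted p, 51 genes were higher in the positive cells and 77 lower, together 1.06% of those tested. Member signals exceeded the array's level for 25 to 29 of the 39 genes per array. Hybridization control signals were 2080 and 2110 on positive replicates 1 and 2 and between 3860 and 5940 on the other arrays, so the difference on positive replicate 3 against the negative arrays is given where it matters. That value comes from a fit with the control split as a block, whose standard error takes its spread from all 6 arrays and assumes that the lone array varies like the others.

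The sorted groups were compared by cell type markers, a list that did not include Ngn2, the reporter gene of the positive gate. Lmx1a, whose direction the gate sets, gave signals of 146, 170 and 78.7 in the positive cells and 3.74, 9.75 and 1.81 in the negative cells. Of 13 tested markers of dopaminergic progenitors and neurons, 8 were higher in the positive cells and 0 lower. The 8 take in Lmx1a, which the gate sets, beside Th, Slc6a3, Nr4a2 and others. Pitx3 and Aldh1a1 were under the filter. Of 9 markers of midbrain GABAergic cells, 7 were lower in the positive cells. The negative cells also held blood-lineage signal. All 5 tested erythroid markers and 5 of 6 tested macrophage and microglia markers were lower in the positive cells. A further 4 erythroid and 6 macrophage and microglia markers were under the filter. Hbb-bh1, Hba-x, Csf1r, Aif1 and Tyrobp passed the filter through the negative arrays only. Lmx1a and Slc6a3 passed it through the positive arrays only, so the filter favoured these marker counts. In such sorted bulk samples, fewer cells of a type and less RNA per cell cannot be told apart.

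Of the 39 members, 28 passed the filter and were tested, and the counts and medians below cover these alone. Gucy2c and Pde1a, by which the set was chosen, passed the filter through the positive arrays only and are left out of the counts in this paragraph. Of the 26 other tested members, 0 passed in limma, beside 1.06% of all genes, and 3 (Pde2a, Adcy5 and Adcy1) had an unadjusted p under 0.05, beside 10.8% of all genes. Pde2a passed the filter through its negative arrays only, so its place in these counts was favoured by the filter. The standard errors of all 28 ran from 0.23 to 0.76, with a median of 0.41, so even large differences could fail to pass. Adcy1 at 1.61 (SE 0.62) and Pde2a at -2.59 (SE 0.7) did not pass. The count of 0 therefore does not show that the members are alike between the groups. The 26 members had a median difference of 0.01, with 14 at positive and 12 at negative values, beside a median of 0.03 over all genes. A difference of at least 1 in either direction was found for 3 of them (Pde2a, Adcy1 and Pde11a) and for 7.43% of all genes. In 5 of the 26 (Adcy1, Adcy5, Gucy1b1, Pde1b and Pde9a) every positive array lay above every negative array, as for 8.21% of all genes. In 1 (Pde2a) every positive array lay below, as for 7.25% of all genes.

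**Figure D1:**
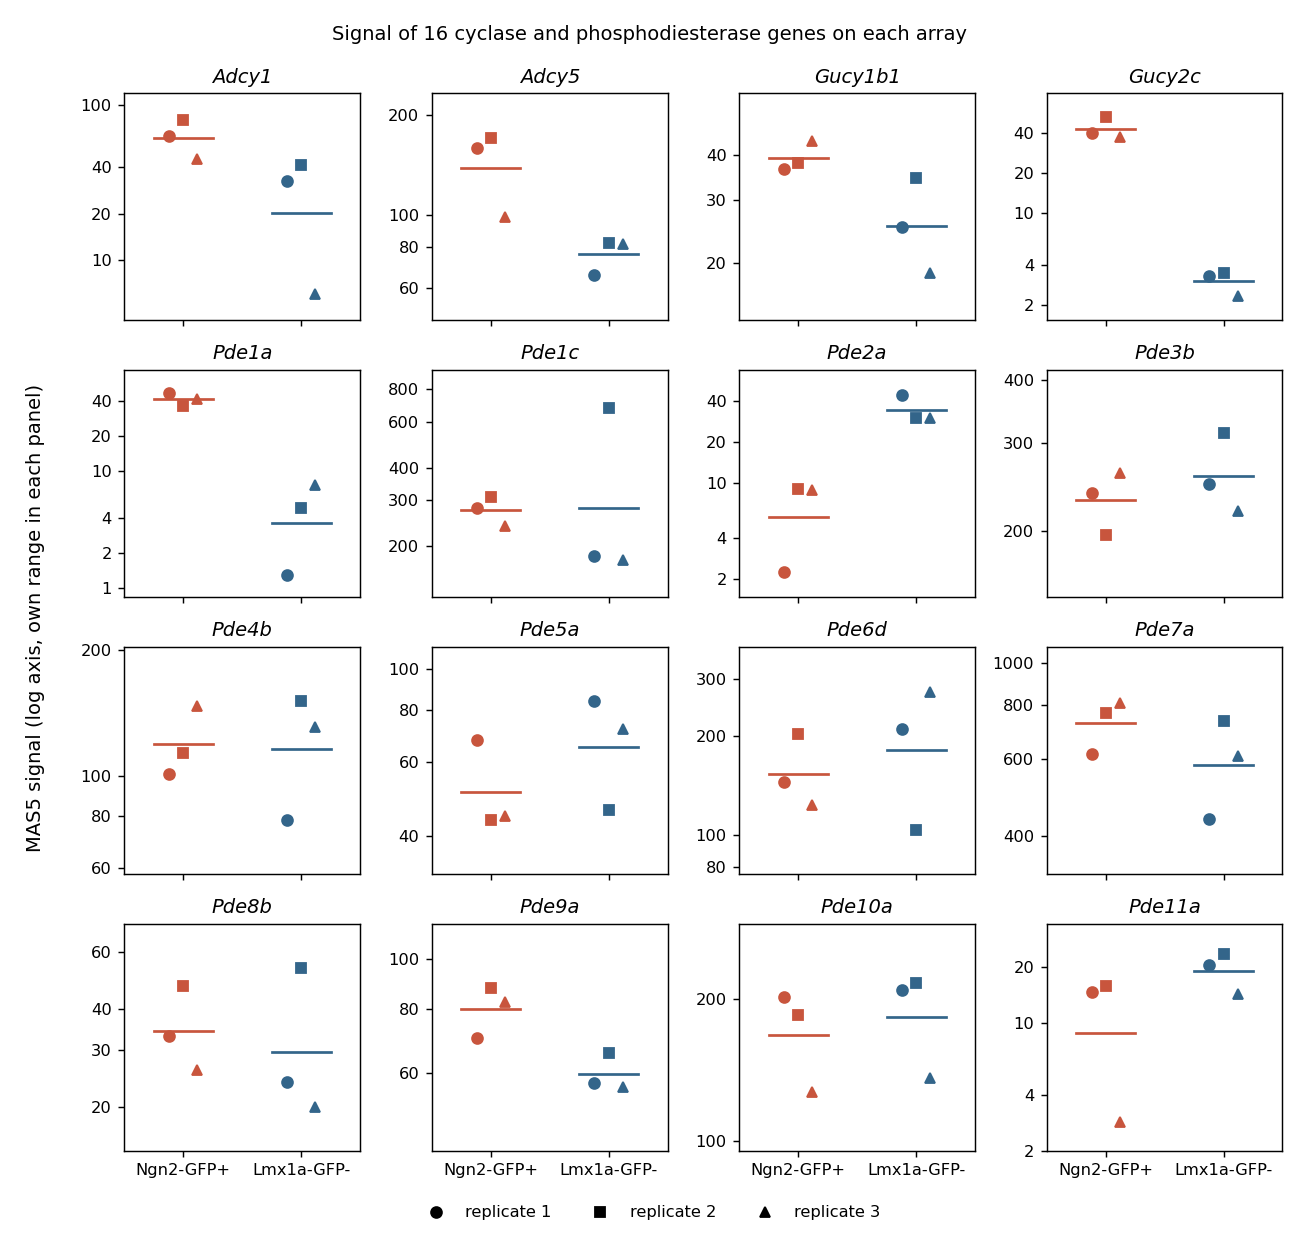
MAS5 signal (log axis, with its own range in each panel) of 16 member genes on each array, with the positive cells on the left and the negative cells on the right of each panel. Marker shape gives the replicate and lines the geometric mean. Gucy2c runs from 36.8 to 52.1 on the positive arrays and from 2.35 to 3.53 on the negative ones, while for genes such as Pde10a the groups overlap.

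Gucy2c encodes the membrane guanylyl cyclase that is the receptor for guanylin and uroguanylin. Its single probe set read 39.6, 52.1 and 36.8 in the 3 positive samples and 3.34, 3.53 and 2.35 in the 3 negative samples. Every positive array stood above the filter level and every negative array below it. The log2 difference was 3.81 (SE 0.66), and, with the negative arrays at or under the level of dim probe sets, the positive signal was at least 3.27-fold higher. Such a bound allows for dim signals but not for the spread between arrays. With positive replicate 3 alone against the negative arrays, the bound was 2.84-fold and the difference 3.61 (SE 0.96).

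The peptide ligands of Gucy2c were listed but not tested, since they stayed under the filter. Guca2a (guanylin) read 1.83, 1.52 and 14.8 in the positive cells and 1.12, 0.866 and 1.09 in the negative cells. Guca2b (uroguanylin) read 2.03, 1.1 and 10.3 against 2.07, 0.854 and 0.901. For each ligand positive replicate 3 was the highest array. The other membrane guanylyl cyclases among the members, Gucy2e and Gucy2g, were also under the filter.

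Pde1a is a phosphodiesterase that calcium-bound calmodulin stimulates and that hydrolyses both messengers. Its brighter probe set read 47.1, 36.6 and 41.5 in the positive samples and 1.31, 4.86 and 7.65 in the negative samples. The positive arrays lay close together, and the negative arrays were all under the filter level. The log2 difference was 3.50 (SE 0.76), and the positive signal was at least 3.2-fold higher, with the same bound for positive replicate 3 alone. The other Pde1a probe set was under the filter on all 6 arrays, with 1.77, 4.3 and 5.65 against 5.92, 3.96 and 1.62, and showed no such separation. The difference of Pde1a therefore rests on 1 probe set, as does that of Gucy2c.

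The other calmodulin-dependent phosphodiesterases were measured well above the filter. Pde1b read 136, 91.4 and 107 in the positive samples and 79.9, 86.3 and 79.7 in the negative samples. The groups did not overlap, but the difference of 0.42 (SE 0.27) did not pass (limma adjusted p = 0.582). Pde1c read 281, 308 and 239 in the positive samples and 183, 681 and 177 in the negative samples. Negative replicate 2 was the highest of the 6 arrays and the other negative arrays the lowest, so that the difference of -0.03 (SE 0.41) becomes 0.61 without negative replicate 2. The 5 other tested probe sets of Pde1c all had positive differences, from 0.19 to 1.14, and each overlapped between the groups.

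Pde2a, a phosphodiesterase of both messengers that cyclic GMP stimulates, had the lowest difference among the tested members. It read 2.23, 9.03 and 8.94 in the positive samples and 44.2, 29.9 and 30.0 in the negative samples. The positive arrays were all under the filter level and the negative arrays all above it, with no overlap. The log2 difference was -2.59 (SE 0.70, limma adjusted p = 0.146). The positive signal was at least 2.64-fold lower, a bound that leaves out the spread between arrays. Since the probe set entered the test through its negative arrays alone, the filter favours a difference here, and even so the threshold was not passed. Pde2a was tested in 15 of the alternatives. With log2 of the signal plus 32, which shrinks differences of dim signals, the difference was -0.78 (limma adjusted p = 0.0535). With 1 array left out it ran from -2.93 to -1.92, and the adjusted p reached 0.379 without positive replicate 1. With positive replicate 3 alone against the negative arrays, the difference was -1.93 (SE 0.99) and the positive signal at least 2.95-fold lower. Both other Pde2a probe sets were under the filter, so the separation rests on 1 probe set.

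Marker lists of other cell types were set beside Pde2a. The summed signal of the 9 annotated erythroid markers (5 tested, all lower) was 325 to 635 in the positive samples and 7510 to 14900 in the negative samples. The summed signal of the 12 macrophage and microglia markers (6 tested, 5 lower) was 59.2 to 75.3 against 678 to 1450. Of 9 radial glia markers, 2 were lower (Fabp7 with a difference of -1.18 and Pax6 with -2.22) and 0 higher, and their sum was 4360 to 6790 against 8090 to 9750. The 9 GABAergic markers, 7 of them lower, summed to 2470 to 2740 against 6090 to 6290. The 9 markers of neurons in general, 0 of them past the threshold, had a median difference of -0.13. They summed to 13500 to 20800 against 16700 to 21800. The endothelial list, of which 1 gene of 8 was tested (Egfl7, difference 0.63), summed to 79.3 to 101 against 38.7 to 82.6. The pericyte and mesenchyme list, with 4 genes tested and 0 past the threshold, summed to 71.3 to 128 against 124 to 135. The part of any of these cells in the Pde2a signal was not tested.

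None of the adenylyl cyclases passed the test. Of 10 genes, 9 were tested, 7 had positive differences (Adcy3 at 0.00 among them) and 2 negative ones, and the median was 0.53 beside 0.03 for all genes. The median was 0.14, with 6 of 9 positive, for positive replicate 3 alone against the negative arrays. With 1 array left out it ran from 0.28 (without negative replicate 2, 6 of 9 positive) to 0.60 (without negative replicate 1, 7 of 9 positive). It was 0.34 without positive replicate 2, and all 9 were positive, with a median of 0.55, without positive replicate 3. Under quantile normalization and median centring 6 of 9 were positive, with medians of 0.47 and 0.50.

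Adcy1, which calcium and calmodulin stimulate, read 63.5, 80.7 and 45.1 in the positive samples and 32.4, 40.9 and 6.07 in the negative samples. The groups did not overlap, with a difference of 1.61 (SE 0.62, limma adjusted p = 0.359). Negative replicate 3 was by far the lowest array, and without it the difference was 0.75. The second probe set of Adcy1 overlapped between groups at 0.42 (SE 0.56). Over the alternatives run, the adjusted p of Adcy1 ran from 0.201 to 0.956.

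Adcy5, a form that Gi proteins and calcium inhibit, read 159, 171 and 98.7 in the positive samples and 65.6, 82.4 and 81.5 in the negative samples. The lowest positive array lay above the highest negative one, with a difference of 0.87 (SE 0.29, limma adjusted p = 0.266). With positive replicate 3 alone it was 0.38 (SE 0.36). The other 3 probe sets gave 0.15, -0.94 and -0.02, and the mean over the probe sets gave 0.02. Without positive replicate 3 the adjusted p of Adcy5 was 0.0588, the lowest over the alternatives.

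The remaining adenylyl cyclases overlapped between the groups. Adcy2 differed by 0.62 (SE 0.39), Adcy9 by 0.58 (SE 0.38), Adcy6 by 0.53 (SE 0.32) and Adcy8, which calcium also stimulates, by 0.38 (SE 0.66). Adcy3, the form of the olfactory cilia, differed by 0.00 (SE 0.58), with its other tested probe sets at 0.02 (SE 0.63) and 1.85 (SE 1.15), and Adcy4 by -0.08 (SE 0.62). Adcy7 differed by -0.25 (SE 0.46) on its brighter probe set and by 0.30 on the other, and by -1.09 with positive replicate 3 alone. Adcy10, the soluble adenylyl cyclase that bicarbonate stimulates, was under the filter.

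The nitric oxide receptor is a dimer of an alpha and a beta subunit, and differences of its subunits had both signs. Gucy1b1, the beta subunit, read 36.4, 38.0 and 43.7 in the positive samples and 25.2, 34.5 and 18.8 in the negative samples. The groups did not overlap, and the difference was 0.63 (SE 0.41, limma adjusted p = 0.599). Its other probe set read 15.3, 14.9 and 82.2 against 35.3, 15.2 and 26.9, with overlapping groups and a difference of 0.13 (SE 0.66), and the mean of both probe sets gave 0.38. The alpha subunits overlapped, with differences of -0.48 (SE 0.55) for Gucy1a1 and -0.46 (SE 0.54) for Gucy1a2.

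**Figure D2:**
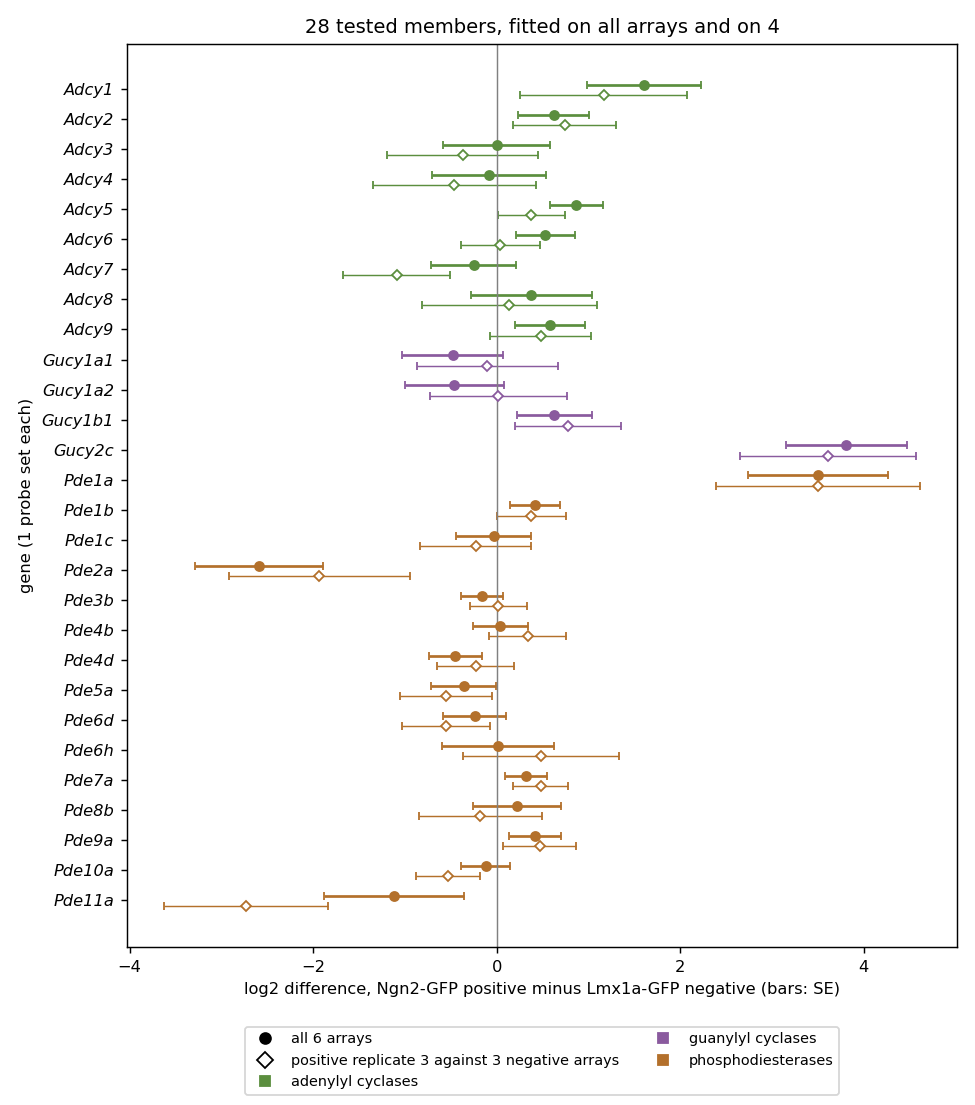
Log2 difference between positive and negative cells for the 28 tested members, with bars for the standard error, fitted on all arrays (filled) and on positive replicate 3 against the negative arrays (open). Gucy2c at 3.81, Pde1a at 3.50 and Pde2a at -2.59 lie apart from the rest with all arrays, and Pde11a moves from -1.12 to -2.73.

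The phosphodiesterases specific for cyclic AMP (Pde4, Pde7 and Pde8) had 4 of 7 genes tested, with a median difference of 0.13. Pde4b read 101, 113 and 147 in the positive samples and 78.1, 151 and 131 in the negative samples, with overlapping groups and a difference of 0.04 (SE 0.30). Pde4d differed by -0.45 (SE 0.29). Pde7a read 618, 768 and 810 against 439, 734 and 611 on its brightest probe set, a difference of 0.32 (SE 0.23), and its other probe sets ran from -0.41 to 0.42. Pde8b read 33.1, 47.1 and 25.9 against 23.9, 53.3 and 20.0, and differed by 0.22 (SE 0.48). In all 4 genes the groups overlapped, and Pde4a, Pde7b and Pde8a were under the filter.

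The phosphodiesterase genes of the cyclic GMP-specific types (Pde5, Pde6 and Pde9) had 4 of 8 genes tested, with a median of -0.11. Pde9a, which has a high affinity for cyclic GMP, read 70.3, 87.8 and 82.4 in the positive samples and 57.4, 65.5 and 56.3 in the negative samples. The groups did not overlap, with a difference of 0.42 (SE 0.28, limma adjusted p = 0.611), and the value was 0.47 with positive replicate 3 alone. Pde6d, a chaperone of prenylated proteins rather than a catalytic subunit, read 145, 203 and 124 against 210, 104 and 274. Both ends of its range were negative arrays, and the difference was -0.24 (SE 0.34). Pde6h, the inhibitory subunit of cones, differed by 0.01 (SE 0.61), and the photoreceptor genes Pde6a, Pde6b, Pde6c and Pde6g were under the filter.

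Pde5a, the target of sildenafil, differed in sign between its probe sets. The brightest read 67.9, 43.7 and 44.7 in the positive samples and 83.8, 46.2 and 72.0 in the negative samples, a difference of -0.36 (SE 0.35) with overlapping groups. The other 2 tested probe sets gave 0.80 (SE 0.45) and 1.18 (SE 0.46), and in both every positive array lay above every negative array. On the first of them the signals were 56.8, 35.4 and 26.8 against 22.2, 20.9 and 22.1, and on the second 51.8, 35.3 and 85.1 against 32.8, 15.8 and 25.9. Neither passed in the limma fit of every probe set (adjusted p = 0.574 and 0.401).

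Among the other phosphodiesterases of both messengers, Pde3b read 238, 197 and 261 against 248, 314 and 219 and differed by -0.16 (SE 0.23), and Pde3a was under the filter. Pde10a, known from the medium spiny neurons of the striatum, read 202, 185 and 127 against 209, 216 and 136, with overlapping groups and a difference of -0.12 (SE 0.27). Its other probe sets ran from -0.20 to 1.09. Pde11a read 14.7, 15.9 and 2.88 in the positive samples and 20.5, 23.8 and 14.3 in the negative samples. Positive replicate 3 was by far the lowest array: the difference was -1.12 (SE 0.76, limma adjusted p = 0.614) with all arrays and -0.32 without that replicate. The 7 tested phosphodiesterases of both messengers, Pde1a and Pde2a included, had a median of -0.12.

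**Figure D3:**
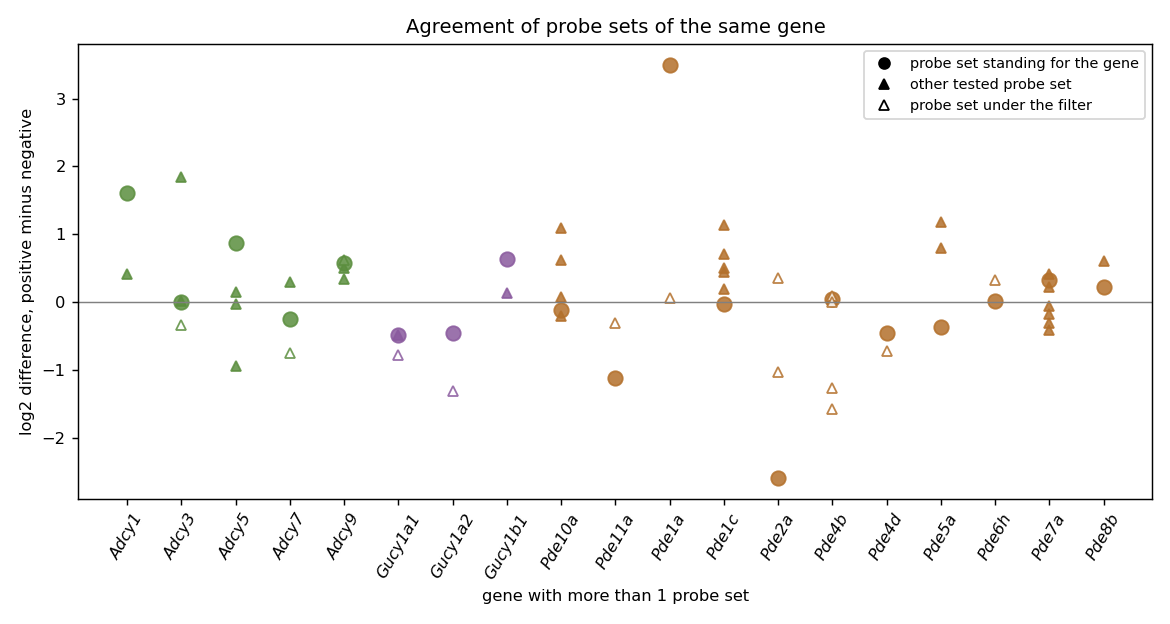
Log2 difference between positive and negative cells for each probe set of the tested members that have more than 1. Circles are the probe set that stands for the gene, filled triangles other tested probe sets, and open triangles those under the filter. The tested probe sets of Pde5a run from -0.36 to 1.18 and those of Adcy5 from -0.94 to 0.87.

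Over the set, 13 genes had 30 further tested probe sets, and 17 of these, in 6 genes, had the opposite sign to the probe set that stands for the gene. These 6 were Adcy5, Adcy7, Pde1c, Pde5a, Pde7a and Pde10a. Probe sets of a gene can bind different transcripts, and the files give no positions for them. The 11 untested members were Adcy10, Gucy2e, Gucy2g, Pde3a, Pde4a, Pde6a, Pde6b, Pde6c, Pde6g, Pde7b and Pde8a, with signals from 0.156 to 28.5.

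Genes that act beside these enzymes were taken as 9 lists of 109 genes, of which 94 were in the annotation and 65 were tested. In limma 0 of the 65 passed in either direction, beside 1.06% of all genes, and 4 (Pde4dip, Prkacb, Prkg1 and Ric8b) had an unadjusted p under 0.05, beside 10.8% of all genes. The median difference was -0.02 beside 0.03 for all genes, with 31 of the 65 at positive values. In 5 of the 65 (Pde4dip, Ric8b, Akap5, Prkg1 and Rapgef2) every positive array lay above every negative array, beside 8.21% of all genes. In 2 (Prkacb and Prkg2) every positive array lay below, beside 7.25% of all genes. The 4 genes with an unadjusted p under 0.05 and others outside the brightest of a list were named after their values were seen.

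Upstream of the cyclases, the 13 G protein subunits had a median difference of 0.07. Gnb1 and Gng2, the brightest, differed by -0.28 (SE 0.24) and -0.36 (SE 0.24). Among regulators, Ric8b, a chaperone of the stimulatory G alpha subunits, read 91.5, 97.0 and 96.6 in the positive samples and 72.6, 66.5 and 45.2 in the negative samples, a difference of 0.66 (SE 0.29, limma adjusted p = 0.449) with no overlap. Its relative Ric8a differed by -0.27 (SE 0.26) and Rgs2 by -0.32 (SE 0.21). Pde4dip, which anchors phosphodiesterase at the Golgi and centrosome, differed by 0.52 (SE 0.23, adjusted p = 0.45), again without overlap. Of the ligand list, 2 of 11 genes were tested: Npr2, the receptor cyclase for C-type natriuretic peptide, differed by -0.24 (SE 0.34) and Nppa by -0.07 (SE 0.63). The peptide Adcyap1, which raises cyclic AMP through its receptor, differed by 0.36 (SE 0.29), and the receptor Adcyap1r1 by 0.16 (SE 0.23).

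Downstream, the kinase genes had differences of both signs. The protein kinase A list of 9 genes had a median of -0.13, with 7 at negative values. It takes in Pkia, Pkib and Pkig, which encode inhibitors of the kinase. The catalytic subunit Prkacb read 299, 241 and 358 in the positive samples and 392, 598 and 360 in the negative samples. Its difference was -0.57 (SE 0.25, limma adjusted p = 0.424), with positive replicate 3 just under negative replicate 3. The regulatory subunit Prkar1a, the brightest of the list, differed by -0.46 (SE 0.24), and the inhibitor Pkig by 0.00 (SE 0.20). Prkg1, protein kinase G type I, read 82.7, 59.2 and 69.7 in the positive samples and 49.9, 13.8 and 32.9 in the negative samples. The groups did not overlap, and the difference was 1.31 (SE 0.46, adjusted p = 0.304). Prkg2 differed the other way, by -0.80 (SE 0.52, adjusted p = 0.596), also without overlap.

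The Rap exchange factors Rapgef2 and Rapgef3 differed by 0.25 (SE 0.22) and 0.37 (SE 0.52). The 12 tested A-kinase anchoring proteins had a median of 0.15, with Akap8 at 0.14 (SE 0.26) and Akap9 at -0.02 (SE 0.23). The 9 tested CREB factors and substrates had a median of -0.14, with Crebbp at -0.43 (SE 0.21) and Arpp19 at -0.11 (SE 0.21). The exporters Abcc4 and Abcc5 differed by -0.75 (SE 0.67) and 0.11 (SE 0.24).

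**Figure D4:**
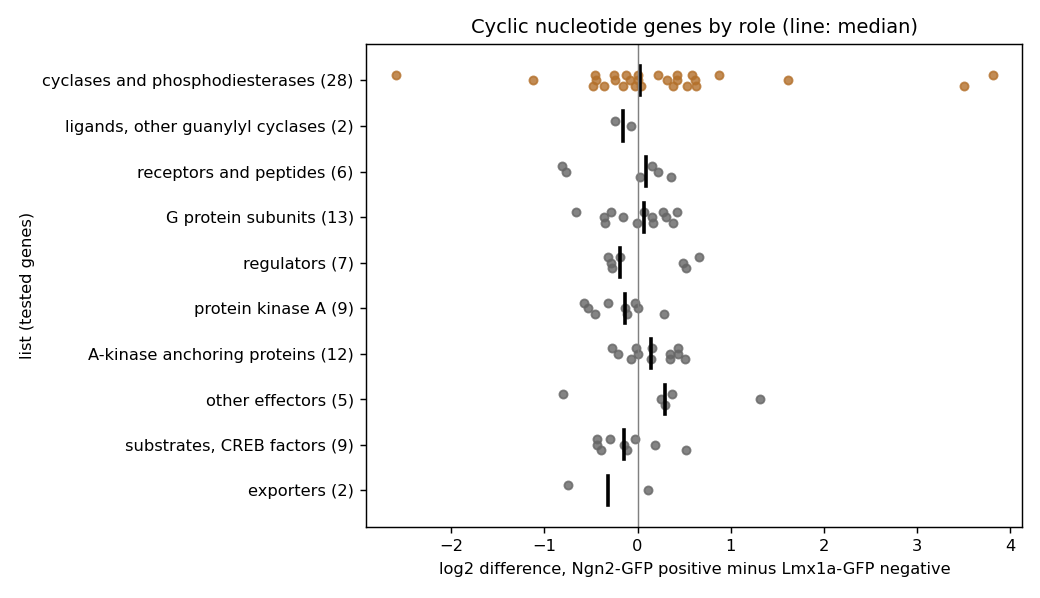
Log2 difference of each tested gene of the 9 lists of genes that act beside the cyclases and phosphodiesterases, 1 row per list below a row with the 28 members, and with a bar at each median. Among the lists Prkg1 at 1.31 lies farthest from 0, and 0 of the 65 genes passed the threshold.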

How the data were processed

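Total RNA from sorted cells was labelled with biotin and measured on 6 arrays, 3 per group, per the labels' protocols. The authors deposited 1 intensity per probe set on a linear scale. The submitters' processing notes name MAS5, R 2.14.2 and limma as the tools behind them, with no version for MAS5 or limma. MAS5 scales each array, so differences in total RNA per cell are not measured.

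Of 45101 probe sets, 64 were controls, and 34945 had 1 symbol, 932 several and 9160 none. Of those with 1 symbol, 34741 matched the RefSeq gene table, which changed 0 symbols. Before taking log2, signals were floored at 1. Of several tested probe sets of a gene, that with the highest mean log2 signal stands for it. Differences were fitted with limma 3.58.1 (trend, 4 residual degrees of freedom) in R 4.3.3, with Benjamini-Hochberg adjustment over 12044 genes. A group with no array above the 40th percentile was called dim, and its bound takes whichever is higher on each array, that percentile or the signal. The bound is a ratio of group means without sampling error, so it is not a confidence limit. The number of arrays limits the precision. The fit was tested on simulated data.

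Members, lists and tests were chosen with earlier results of these data known. Values on every array are given for Gucy2c, Pde1a, members past the threshold, members without overlap that differ by at least 1, and the brightest member of each family, and for further members where the groups or probe sets differ. Of each list the 2 brightest genes and the Gucy2c ligands are named. Alternatives covered normalization, filter, pseudocount, trend, choice of probe set, blocks and each array left out.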

Additional observations from a re-analysis of the deposited data

How the results depend on the processing

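Of the named members' values under the alternatives, Gucy2c and Pde1a aside, 219 did not reverse and stayed on their side of the threshold, and 14 reversed. The 219 include Pde7a at 0.00 and Adcy5 at 0.02, down from 0.87, both with the mean of probe sets. None of these members was past the threshold with the main settings. Gucy2c and Pde1a kept their direction under every alternative in which they were tested, and moved by more than the spread between replicates with log2 of the signal plus 32, to 1.09 and 1.01. The count of all genes past the threshold (128) was 19 with no filter, 42 without the trend and 34 with the hybridization control split as a block, and 58 to 419 with 1 array left out, 419 of them without positive replicate 3. The count of members past it (2) is that of Gucy2c and Pde1a, on whose values the set was chosen, and supports nothing. It was 1 with quantile normalization, without the trend, with the mean of probe sets and with every probe set tested. It was also 1 without probe sets marked _s_at, _x_at or _a_at. That setting drops the only tested probe sets of Pde1a and Pde2a, so neither gene was tested there. The count was 0 with no filter and with a filter at the 60th percentile, and 0 to 2 with 1 array left out. The hybridization control split as a block sets positive replicate 3 alone against the negative arrays, so members are given there by difference only. Both standard errors grew there, with Gucy2c at 3.61 (SE 0.96, against 0.66) and Pde1a at 3.50 (SE 1.11, against 0.76). At the 60th percentile Gucy2c and Pde1a were not tested. The count of pathway genes past it (0) was 0 to 1 with 1 array left out, the 1 being Prkar1a without positive replicate 3. Reversals concerned members with main differences from -0.36 (Pde5a) to 0.22 (Pde8b). With the mean of probe sets, Pde10a was 0.29, Pde1c 0.49 and Pde5a 0.54, all genes with further tested probe sets of the opposite sign. With the split as a block, Pde3b was 0.02 and Pde8b -0.18, and with quantile normalization Pde4b was -0.02. With 1 array left out, Pde10a ran from -0.34 to 0.08, Pde1c from -0.36 to 0.61, Pde4b from -0.24 to 0.23, Pde6d from -0.64 to 0.06 and Pde8b from -0.06 to 0.65. The causes were not tested. Samples share only replicate numbers (correlations of same-numbered deviations 0.139, -0.0964 and 0.0318), and with the replicate block 127 genes and 2 members passed. Signals near the background limit what can be resolved for the dim members.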
